A study of Homo sapiens with 4 samples.

Results

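The SLC25 genes encode the mitochondrial carriers, the proteins that move metabolites across the inner membrane of mitochondria. The genes described here are all rows of the deposited table whose symbol is SLC25A followed by a number, which gave 48 of 19826 gene rows. No measured value was used to choose them. RNA came from BE(2)C cells, a human neuroblastoma line, that carried an introduced MYCN open reading frame (BE(2)C:MYCN-ORF) in every group. Each culture received an siRNA (siCon, a control, or siMYCN, which targets MYCN) together with a mimic (miRCon, a control miRNA, or let-7a), and polyA RNA was taken 48 hours later. The 4 groups, siCon with miRCon, siCon with let-7a, siMYCN with miRCon and siMYCN with let-7a, held 1 library each, so no difference between single libraries has a replicate check. A single line was used, and the introduced reading frame and the cells' own MYCN gene share 1 row of the table.

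Values are TPM-like, that is, scaled for transcript length and to a common total per library. They sum to between 855811 and 862049 in each library and keep no read depth, so the depth is unknown and no counting error can be given. MYCN itself, the target of the siRNA, stood at 1449 and 1433 with siCon and at 1238 and 1197 with siMYCN, the miRCon library first in each pair. Both siMYCN libraries lay below both siCon libraries, by -0.24 ± 0.047 (SE) on the log2 scale, which did not pass the test used below (adjusted p = 0.0584 by limma). All 9 markers of noradrenergic neuroblastoma had a mean of at least 5, none (0) of 5 blood markers and none (0) of 4 epithelial markers did, and 4 of 5 fibroblast markers did, with a summed level of 152 to 198 that was lower in both let-7a libraries than in their partners. The mitochondrial genome's own transcripts made up 31.7% and 32.1% of all values with siCon, and 28.4% and 29.3% with siMYCN. The part of either in the results below was not tested, but values rescaled without the mitochondrial genome are described at the end. This rescaling moved the median log2 difference with siMYCN from 0.056 to 0.00031 for all genes tested below. For the SLC25A genes among them it moved from -0.062 to -0.12. In bulk RNA, fewer cells of a type and less RNA per cell cannot be told apart.

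Mitochondrial carriers share a fold built from repeated pairs of membrane helices, and most work as exchangers that take 1 metabolite in while another goes out. They join the citric acid cycle and the respiratory chain inside the mitochondrion to synthesis of lipids, nucleotides and amino acids outside it. MYC family proteins are known for promoting growth and mitochondrial metabolism and bind DNA at the E-box. let-7 miRNAs lower mRNAs that carry a match to their seed in the 3' UTR.

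The let-7a mimic acts through the mature sequence below, taken from RefSeq (GRCh38.p14) and shown because its seed, bases 2 to 8 in capitals, defines the sites searched for in the carriers.
hsa-let-7a-5p: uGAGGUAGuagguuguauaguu
A site was a match to CTACCTC (7mer-m8), TACCTCA (7mer-A1) or both together as CTACCTCA (8mer), on the sense strand of the longest annotated 3' UTR in GENCODE 29. All 48 members had a 3' UTR, and 10 held a site. Only 1 of these was an 8mer, in SLC25A18, a glutamate carrier listed at 0.0800 to 0.467 here. Among members with a mean level of at least 5, 5 of 30 (16.7%) held a site, against 18.8% of 8914 genes filtered in the same way.

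The sites of 4 of these 5 are shown with the bases around them, because they are the positions at which the mimic could pair with a carrier that the cells express. Capitals mark the match, and all are given 5′ to 3′ on the mRNA strand.
SLC25A3, 7mer-m8, chr12:98603482-98603510, plus strand: gaacatagtctCTACCTCttcctgagagg
SLC25A40, 7mer-m8, chr7:87836095-87836123, minus strand: taatttcagctCTACCTCtaaatcataat
SLC25A16, 7mer-A1, chr10:68480471-68480499, minus strand: aaaaaaaaagaTACCTCAgttaggttatc
SLC25A23, 7mer-A1, chr19:6441451-6441479, minus strand: cggattccctgTACCTCAacacccagacc
The other was SLC25A32, with a 7mer-m8 site at base 198 of a 3' UTR of 1776 bases. The site of SLC25A3 lies at base 1965 of an annotated 3' UTR of 4851 bases, and that of SLC25A16 at base 2944 of 5431. Transcripts with a shorter 3' UTR may lack these sites and were not searched. A match is a description of the letters and does not show that the site is used.

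The E-box CACGTG, which reads the same on both strands, was searched in RefSeq promoter windows of 300 bases (250 before and 50 after the start site, GRCh38.p14). Windows were matched for 40 of 48 members, 51 windows in all, since some genes have several. The letters CACGTG occurred in 8 of 34 windows (23.5%) of members with a mean of at least 5. The share was 9.99% of 10403 windows of all genes filtered in the same way and 7.26% of 35116 windows in total. Windows of a gene are not independent. By gene, CACGTG occurred in 8 of 26 members and 964 of 7256 genes that passed this filter and had a window. CACGCG or its reverse complement CGCGTG, also searched, occurred in 9 of the 34 windows (26.5%), against 18.5% of the 10403. The median GC content of these members' windows was 69.0%, against 65.3% for all genes filtered in the same way. Each of the 8 windows with CACGTG belonged to a different gene. They are shown by 30 bases around the motif, because MYCN is the factor the siRNA targets. Capitals mark CACGTG.
SLC25A13, chr7:96322235-96322264, minus strand: gcgcagcggggtCACGTGtccctgtccagc
SLC25A22, chr11:795418-795447, minus strand: ctggctggggtgCACGTGagccccgagcgt
SLC25A26, chr3:66220965-66220994, plus strand: gtggttctacgtCACGTGgtcccggaagtt
SLC25A33, chr1:9539427-9539456, plus strand: tccggcccccgcCACGTGacggccgcgcgc
SLC25A36, chr3:140941681-140941710, plus strand: gcccgtagggatCACGTGaaagaacactgc
SLC25A38, chr3:39383314-39383343, plus strand: tcagaacaccctCACGTGacaagcgtccca
SLC25A46, chr5:110738948-110738977, plus strand: agaggctataatCACGTGctccgaagactt
SLC25A51, chr9:37904169-37904198, minus strand: cggtgtctccctCACGTGaccccaacagcg
SLC25A26 held a further copy that begins 50 bases before the start site, whereas the one shown begins 24 bases before it.

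In GENCODE 29, 21 of 48 members share exon bases with another gene, and since no strand setting is known, reads of such a pair cannot be told apart. For 10 of them the other gene lies on the opposite strand and has its own row: SLC25A11 with RNF167, SLC25A12 with METAP1D, SLC25A21 with PAX9, SLC25A22 with PANO1, SLC25A25 with NAIF1, SLC25A26 with LRIG1, SLC25A32 with DCAF13, SLC25A35 with RANGRF, SLC25A40 with DBF4 and SLC25A48 with CXCL14. The rest overlap genes without a row, such as antisense RNAs, and include SLC25A3, SLC25A5, SLC25A10, SLC25A18, SLC25A24, SLC25A29, SLC25A30, SLC25A34, SLC25A45 and SLC25A51.

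Mean carrier levels ranged from 1068 for SLC25A5 to a listed 0 for SLC25A52. Of 48 members, 3 averaged at least 100 across the 4 libraries, 13 lay between 20 and 100, 14 between 5 and 20, 7 between 1 and 5, and 11 under 1. The 30 members with a mean of at least 5 entered the test, as did 9324 of all gene rows. SLC25A17, a peroxisomal carrier of cofactors, was the member just inside this limit, with 4.31, 6.05, 5.08 and 4.59. Here and below, 4 values stand in the order siCon/miRCon, siCon/let-7a, siMYCN/miRCon, siMYCN/let-7a. SLC25A30, related to the uncoupling proteins, was just outside it, with a mean of 4.65.

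The ADP/ATP carriers, which export ATP from mitochondria in exchange for ADP, took most of the family's RNA. SLC25A5 (ANT2), on chromosome X from 119468400 to 119471319 of GRCh38, stood at 1056, 1053, 1071 and 1092. SLC25A6 (ANT3) stood at 529, 546, 544 and 568. Together these genes made up 61.4%, 61.6%, 63.0% and 65.1% of the summed level of the 48 members. SLC25A4 (ANT1), the form known from heart and muscle, was far lower at 5.24, 3.16, 3.83 and 4.07. SLC25A31 (ANT4), the form known from testis, was at 0.122 in siCon with miRCon and listed at 0 in the other libraries. The order SLC25A5, SLC25A6, SLC25A4, SLC25A31 held in each library, with no overlap between neighbours. SLC25A5 has 9 named pseudogenes and SLC25A6 has 6 in GENCODE 29, and reads from such copies may have been divided between them.

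**Figure D1:**
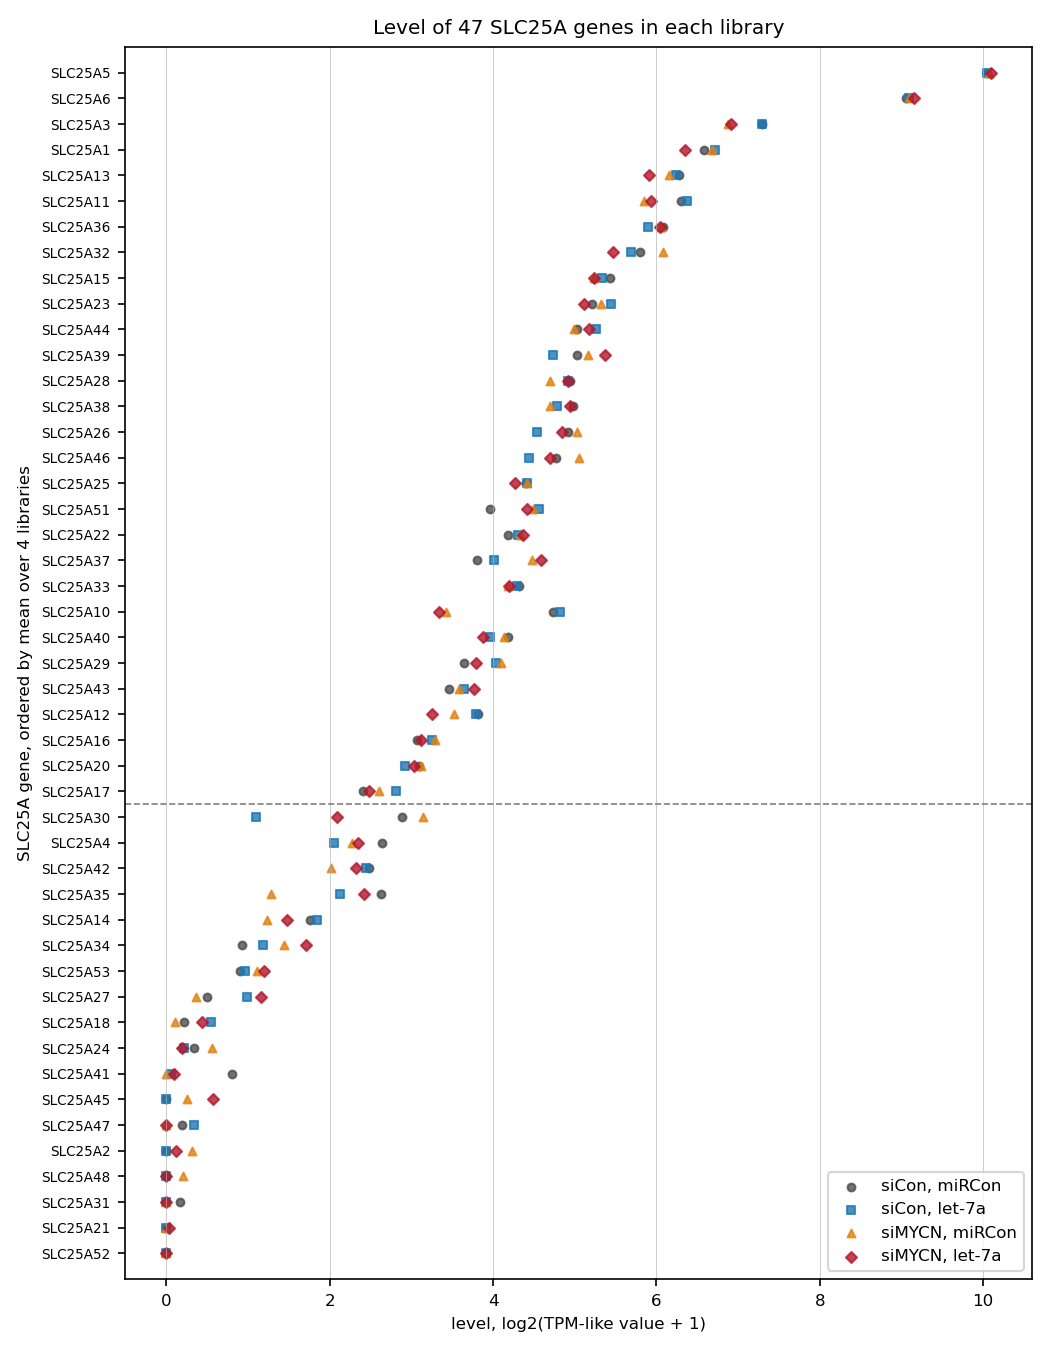
Levels of 47 of the 48 SLC25A genes in each library, as log2(TPM-like value + 1), ordered by mean; symbols stand for single libraries and the dashed line separates the genes with a mean of at least 5 from the 18 below. SLC25A5 and SLC25A6 stand above all others, SLC25A10 splits by siRNA, and SLC25A52 is at 0 in every library.

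Below the ADP/ATP carriers came SLC25A3, the phosphate carrier that supplies ATP synthase, with a mean of 137, and SLC25A1, the citrate carrier that feeds lipid synthesis, with 95.6. SLC25A13, the aspartate/glutamate carrier citrin, had 70.1, SLC25A11, the 2-oxoglutarate/malate carrier, 69.2, SLC25A36, a pyrimidine nucleotide carrier, 63.9, and SLC25A32, a carrier of folate or FAD, 53.9. The ranges of SLC25A13, SLC25A11, SLC25A36 and SLC25A32 over the libraries overlapped one another, so these genes cannot be ordered. The range of SLC25A1 also overlapped that of SLC25A11. Some related carriers differed in level. Citrin was at 58.9 to 76.4, and its paralogue SLC25A12 (aralar, known from brain and muscle) at 8.54 to 13.1. The glutamate carrier SLC25A22 was at 17.2 to 19.6, and its paralogue SLC25A18 at 0.0800 to 0.467. The ATP-Mg/phosphate carriers SLC25A23 and SLC25A25 were at 33.6 to 42.6 and 18.3 to 20.4, whereas SLC25A24 and SLC25A41 stayed below 1 in every library. The ornithine carrier SLC25A15 was at 36.7 to 42.3 and its paralogue SLC25A2 at 0.241 or less. All 3 uncoupling-protein-like members (SLC25A14, SLC25A27 and SLC25A30) had a mean under 5.

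A listed 0 need not mean that a gene is silent, since SHMT2, a mitochondrial enzyme common in dividing cells, was listed at 0.514 or less in every library. Of the 48 members, 8 were listed at 0 in at least 1 library and only SLC25A52 in all. Among the 30 tested members, the highest library was less than 1.5 times the lowest for 22, and the median of this ratio was 1.28. The 8 with a ratio of at least 1.5 included SLC25A10, SLC25A37, SLC25A39, SLC25A46, SLC25A51, SLC25A32 and SLC25A12. SLC25A10 had the widest ratio of the tested members, 2.98.

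The siRNA comparison asks how carrier mRNAs differ when MYCN is targeted. Changes are given as differences of log2(value + 1), a scale that compresses those of low genes. The effect was seen once with miRCon and once with let-7a, in pairs that share no library, and was tested with limma on all 9324 genes under the assumption that siRNA and mimic effects add. The p-values ask whether a treatment effect differs from 0. With 1 library per group, the only error to set it against is the departure of these 4 libraries from that assumption, with error borrowed from other genes. SLC25A10, the dicarboxylate carrier that exchanges malate and succinate for phosphate, was the member that passed. It stood at 25.6 and 27.2 in the siCon libraries and at 9.73 and 9.10 in the siMYCN libraries. The siRNA groups did not overlap, and within each the libraries lay close together. Here and below, the share of all genes whose groups separate in this way was not counted. SLC25A10 fell by 1.39 on the log2 scale (SE 0.15 of the additive limma model, 4 libraries, adjusted p = 0.0280), with -1.31 with miRCon and -1.48 with let-7a. By limma with Benjamini-Hochberg adjustment, 1 of 30 members was lower and 0 were higher, against 1.36% and 2.07% of all genes, so the share called in either direction is near the background of 3.43%. At an unadjusted p under 0.05 in limma, 3 members were lower and 1 higher, against 9.4% and 17.0% of all genes. With no filter and with limma without a trend, 0 members and 0 genes in all passed, and the adjusted p of SLC25A10 was 0.369 and 0.129.

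SLC25A10 lies on chromosome 17 from 81712236 to 81721016 of GRCh38, plus strand, and its promoter window held no CACGTG. GENCODE 29 places a protein-coding read-through gene, AC139530.2, across SLC25A10 and the neighbouring MRPL12, a mitochondrial ribosomal protein gene. Reads in the exons they share could be assigned to either. MRPL12 stood at 349, 329, 328 and 296, a log2 change with siMYCN of -0.12 ± 0.060 (SE), which did not pass (adjusted p = 0.263 by limma).

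The other carboxylate carriers gave smaller values. SLC25A11, which with the aspartate/glutamate carriers forms the malate-aspartate shuttle, stood at 77.9, 82.0, 56.8 and 60.2. Both siMYCN libraries lay below both siCon libraries, at -0.45 and -0.44 (adjusted p = 0.0593 by limma). SLC25A1 stood at 95.2, 105, 102 and 80.5, and its effects of 0.096 with miRCon and -0.37 with let-7a pointed in opposite directions. SLC25A21, the oxodicarboxylate carrier, was at 0.0232 in siMYCN with let-7a and listed at 0 elsewhere.

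The phosphate carrier SLC25A3 was also lower in both siMYCN libraries, at 155 and 155 with siCon and 116 and 119 with siMYCN. The pairs gave -0.42 and -0.38, and the adjusted p was 0.0535 by limma. SLC25A3 and SLC25A11 did not pass in the test over all genes, but did when values were rescaled by median ratios (adjusted p = 0.0219 and 0.0270 by limma) and at a mean of at least 20 (adjusted p = 0.0419 and 0.0439 by limma). Neither promoter window held CACGTG. The ADP/ATP carriers, partners of SLC25A3 in ATP synthesis, differed little. SLC25A5 had log2 fold changes of 0.020 and 0.052 and SLC25A6 of 0.040 and 0.056, and the mean of both pairs turned negative for each under rescaling (-0.026 and -0.014).

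**Figure D2:**
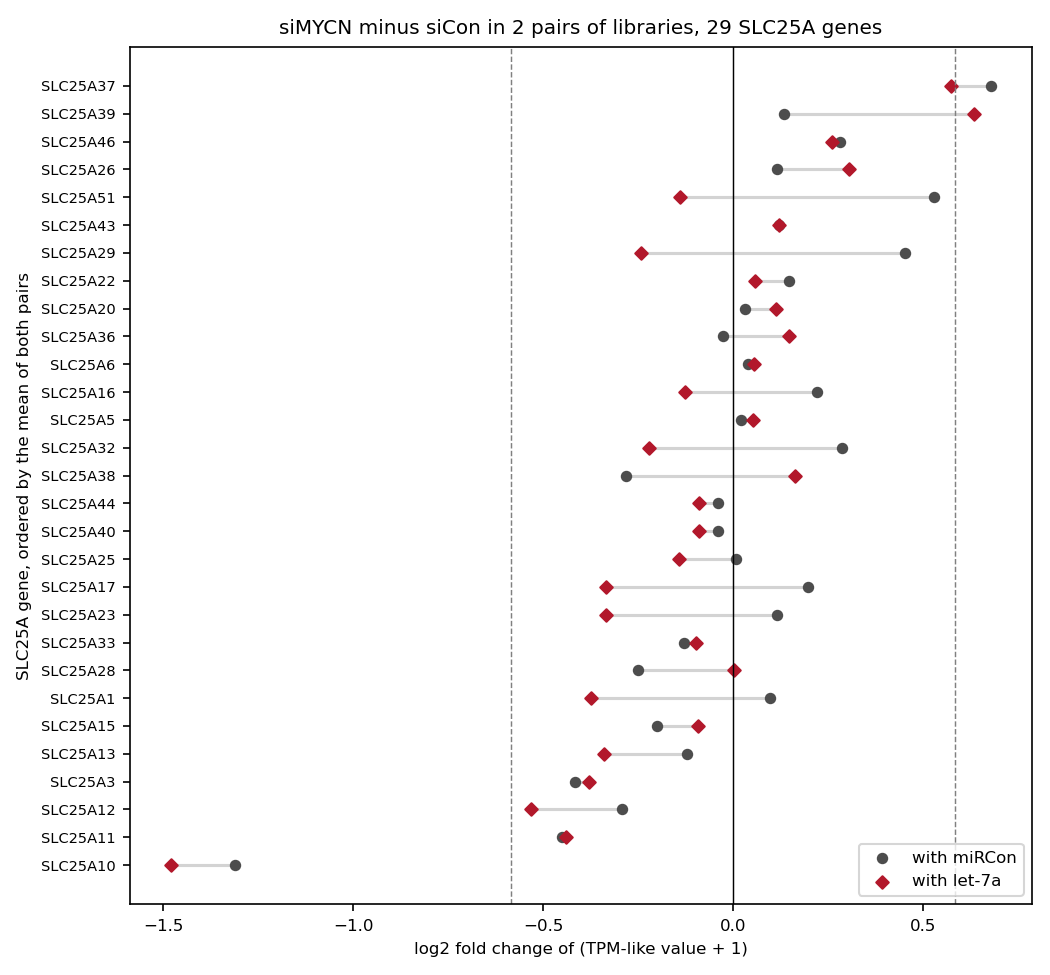
log2 fold change of siMYCN against siCon for 29 of the 30 tested SLC25A genes, once with miRCon (circles) and once with let-7a (diamonds), ordered by their mean; dashed lines mark 1.5-fold. SLC25A10 lies apart at -1.31 and -1.48, SLC25A3 and SLC25A11 have nearly equal values in both pairs, and 11 of the genes drawn point in opposite directions.

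Among the 7 tested amino acid carriers, 4 were below 0 in both pairs, 1 above 0 and 2 in opposite directions, with a median of -0.065 and 0 called by limma. The shares of all genes were 27.4% below 0, 43.2% above 0 and 29.4% in opposite directions. The aspartate/glutamate carriers were both on the lower side. SLC25A12 stood at 13.1, 12.8, 10.5 and 8.54, or -0.29 with miRCon and -0.53 with let-7a (adjusted p = 0.201 by limma). SLC25A13 stood at 76.4, 74.8, 70.2 and 58.9, with -0.12 and -0.34 (adjusted p = 0.211 by limma). For each of these genes both siMYCN libraries lay below both siCon libraries. The same held for other members with small effects, such as SLC25A15 and SLC25A33, at -0.15 and -0.11 over both pairs. SLC25A13 has CACGTG in its promoter window and SLC25A12 has none, while both windows hold CACGCG or its reverse complement.

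Among the 30 tested members, the 2 largest positive siMYCN effects belonged to iron and glutathione carriers. SLC25A37 (mitoferrin-1), which brings iron into mitochondria and is known from red cell precursors, stood at 12.9 and 15.1 with siCon and at 21.3 and 23.0 with siMYCN. Its siRNA groups did not overlap, and its log2 fold changes were 0.68 and 0.57 (adjusted p = 0.0683 by limma). Its paralogue SLC25A28 (mitoferrin-2), the more widely expressed form, stood at 29.8, 29.3, 24.9 and 29.3, with -0.25 and 0.0021. SLC25A39, which imports glutathione, stood at 31.6, 25.6, 34.8 and 40.2. Its values of 0.13 and 0.63 were both above 0 but unequal (adjusted p = 0.193 by limma). Its paralogue SLC25A40 had -0.041 and -0.091. In this group of 4, the median was 0.16 and limma called 0.

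The 8 tested carriers of nucleotides and cofactors mostly gave no shared direction. In the pairs 6 pointed in opposite directions, against 29.4% of all genes. The median of these 8 was 0.039 and limma called 0. SLC25A26, the carrier of the methyl donor S-adenosylmethionine, stood at 29.1, 22.3, 31.7 and 27.8, with siMYCN effects of 0.12 and 0.30 (adjusted p = 0.332 by limma). SLC25A46, an outer membrane protein linked to mitochondrial shape, stood at 26.3, 20.7, 32.2 and 24.96, with 0.28 and 0.26 (adjusted p = 0.22 by limma). For SLC25A26 and SLC25A46 the siRNA groups overlapped, and each let-7a library was below its partner. Both have CACGTG in their promoter windows. The 8 tested members with CACGTG had a median siMYCN effect of 0.082, from -0.23 to 0.27, and the 18 with a window and no CACGTG had -0.068, from -1.39 to 0.38.

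Over the 30 tested members, 9 were below 0 and 9 above 0 in both siMYCN pairs, and 12 pointed in opposite directions. Over all genes, the shares were 27.4%, 43.2% and 29.4%. By the mean of both pairs, 16 members were below 0, against 41.7% of all genes. The members' median was -0.062, against 0.056 for all genes, and by pair it was 0.036 with miRCon and -0.095 with let-7a. Rescaling by median ratios moved the members' median to -0.12 and that of all genes to -0.0030. The rule of at least 1.5-fold in both pairs was met by 1 member, SLC25A10, against 1.61% of all genes that were lower, and by 0 that were higher, against 2.85%. Across the 30 members, which are not independent replicates, the pair effects had a Pearson r of 0.64, and 0.33 without SLC25A10.

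**Figure D3:**
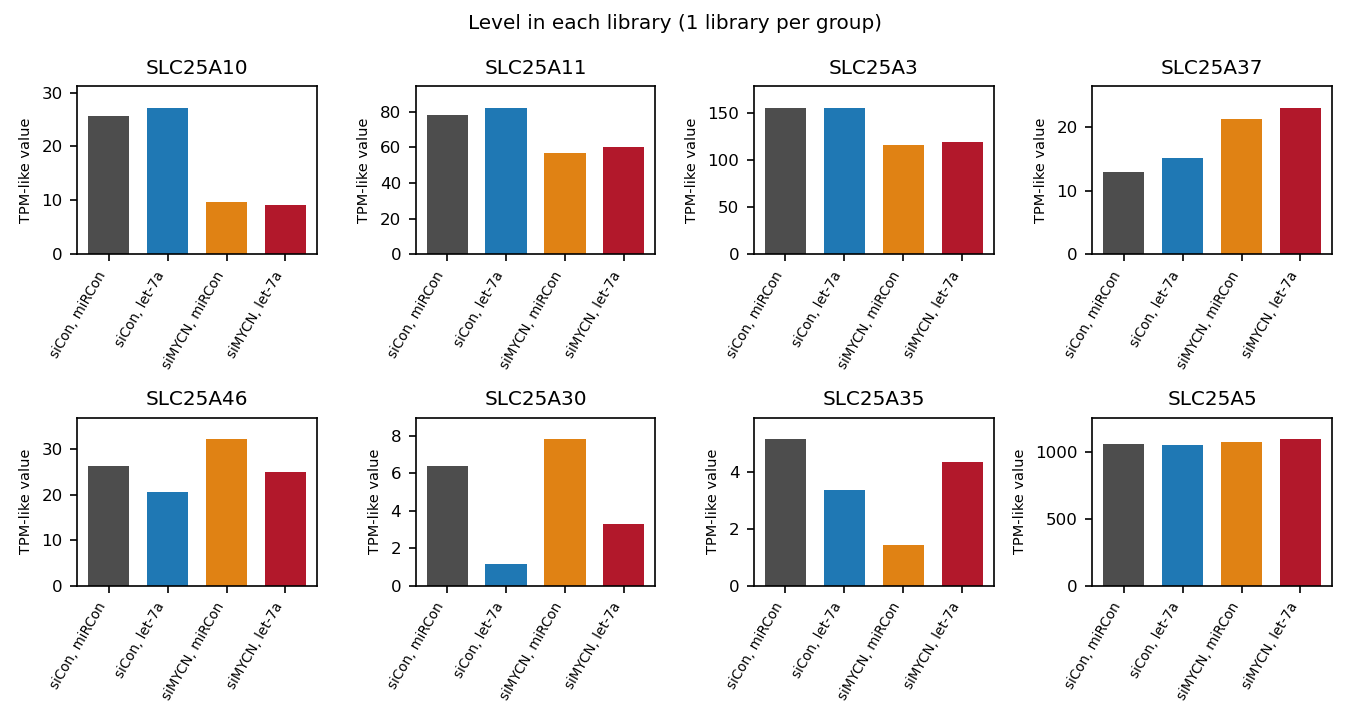
TPM-like value in each library for 8 SLC25A genes, with 1 bar per library and axes from 0. SLC25A10, SLC25A11 and SLC25A3 are lower and SLC25A37 higher in both siMYCN libraries, SLC25A46 and SLC25A30 are lower in each let-7a library than in its partner, SLC25A35 has no shared direction and SLC25A5 is nearly level.

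The mimic comparison asks how carriers differ with let-7a. By limma, 0 of 30 members passed in either direction, against 0.0% of all 9324 genes. At an unadjusted p under 0.05, 0 members were higher and 1 was lower, against 2.77% and 4.71% of all genes. The member was SLC25A46, which stood at 26.3 and 20.7 with siCon and at 32.2 and 24.96 with siMYCN. These are let-7a effects of -0.33 and -0.35 (SE 0.12, adjusted p = 0.663 by limma). Its 3' UTR of 1002 bases held no let-7a site. The medians over both pairs were 0.012 for the members and -0.031 for all genes.

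Of the 5 tested members with a site, 2 were below 0 in both let-7a pairs. This compares with 7 of 25 members without a site, 678 of 1677 genes with a site and 2316 of 7237 genes without. SLC25A32 stood at 54.7 and 50.7 with siCon and at 66.9 and 43.4 with siMYCN, which are let-7a effects of -0.11 and -0.61 (adjusted p = 0.663 by limma). Its level with siMYCN and let-7a was the lowest of the 4. SLC25A40 stood at 17.1 and 14.6 with siCon and at 16.6 and 13.7 with siMYCN, effects of -0.21 and -0.26 (adjusted p = 0.713 by limma). For SLC25A40 both let-7a libraries lay below both miRCon libraries. The phosphate carrier SLC25A3 had 0.00070 and 0.038. SLC25A16, linked to coenzyme A, had 0.19 and -0.16, and SLC25A23 had 0.24 and -0.21, so both pointed in opposite directions. The 5 tested members with a site had a median of 0.011 and the 25 without had 0.012, against -0.067 for 1677 genes with a site and -0.025 for 7237 without. SLC25A26, with no site, stood lower with let-7a in both pairs, at -0.37 and -0.18 (adjusted p = 0.667 by limma).

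**Figure D4:**
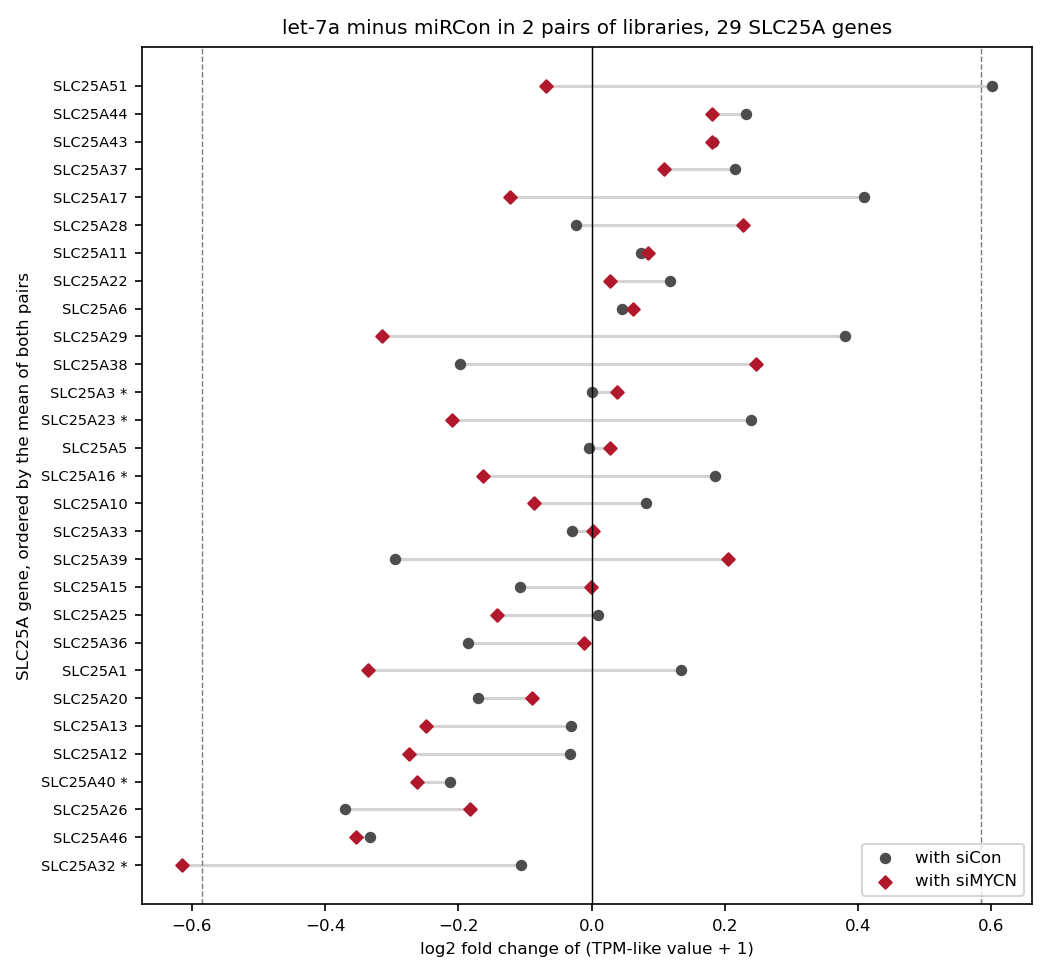
log2 fold change of let-7a against miRCon for 29 of the 30 tested SLC25A genes, once with siCon (circles) and once with siMYCN (diamonds), ordered by their mean; asterisks mark the 5 genes with a let-7a site and dashed lines 1.5-fold. No gene drawn passes 1.5-fold in both pairs, and 13 of them point in opposite directions.

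On the higher side with let-7a, SLC25A44, the carrier of branched-chain amino acids, stood at 31.6 and 37.3 with siCon and at 30.8 and 35.0 with siMYCN, effects of 0.23 and 0.18 (adjusted p = 0.693 by limma). The orphan carrier SLC25A43 stood at 10.0 and 11.5 with siCon and at 10.98 and 12.6 with siMYCN, effects of 0.18 in each pair (adjusted p = 0.789 by limma). In both genes each let-7a library was above both libraries with miRCon. SLC25A51, the NAD carrier, stood at 14.6, 22.6, 21.4 and 20.4, with 0.60 and -0.069 (adjusted p = 0.752 by limma). For SLC25A51 the positive mean came from the siCon pair alone.

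Over the 30 members, 9 were below 0 and 7 above 0 in both let-7a pairs and 14 pointed in opposite directions, against 33.5%, 22.6% and 44.0% of all genes. By the mean of both pairs, 14 members were below 0, against 57.7% of all genes. The let-7a effect differed between the pairs by at least 1.5-fold for 3 members, SLC25A29 and SLC25A51 among them, against 10.0% of all genes, and by at least 2-fold for 0 members, against 2.39%. No tested member (0) was at least 1.5-fold higher or lower in both pairs, against 0.204% and 0.257% of all genes. SLC25A30, under the filter, was the exception among all 48, and had the widest spread of any member listed above 0 in every library. It stood at 6.39 and 1.14 with siCon and at 7.80 and 3.27 with siMYCN. Both let-7a libraries lay below both miRCon libraries, with log2 fold changes of -1.79 and -1.04. Its 3' UTR of 2658 bases held no let-7a site. With no filter its adjusted p was 0.84 by limma, and it shares exon bases with TPT1-AS1 and SLC25A30-AS1 on the opposite strand.

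Other members under the filter are given as values. SLC25A35, an orphan carrier, stood at 5.16, 3.38, 1.44 and 4.36, so that siMYCN with miRCon was lowest, and its let-7a effects were -0.49 and 1.14. SLC25A4 had let-7a effects of -0.58 and 0.071. SLC25A27, a member known from brain, stood at 0.416, 0.979, 0.288 and 1.23, with both let-7a libraries above both others. SLC25A34, an orphan carrier, stood at 0.900, 1.26, 1.71 and 2.28, with both siMYCN libraries above both others. With no filter, limma called 0 members for either treatment, and 7 members for siMYCN and 4 for let-7a had an unadjusted p under 0.05. These are 14.6% and 8.33% of the 48 members, against 12.4% and 5.88% of all 19826 genes.

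The library with both treatments, set against the library with neither, is a single pair that shares its libraries with the comparisons above. SLC25A10 was at -1.40 and SLC25A37 at 0.79, and they were the members beyond 1.5-fold among the 30 tested, 1 lower and 1 higher, against 5.97% and 7.5% of all genes. On the lower side SLC25A12 followed at -0.56. SLC25A3, SLC25A13 and SLC25A11 stood at -0.38, -0.37 and -0.37. The members' summed level was 2582 with neither treatment and 2549 with both, and without the ADP/ATP carriers it was 992 and 885.

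Carrier genes named outside the SLC25A series and genes that work with the carriers were viewed from lists. Of 5 family genes under other symbols, 3 were tested. UCP2, a carrier of the uncoupling protein group, fell with siMYCN. It stood at 106 and 105 with siCon and at 67.7 and 71.7 with siMYCN, a log2 change of -0.59 ± 0.084 (SE, adjusted p = 0.0401 by limma). MTCH1 and MTCH2, outer membrane relatives, had 0.077 and -0.072 over both pairs.

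The import machinery that inserts carriers into the inner membrane had 16 tested genes, of which 10 were above 0 in both siMYCN pairs, 3 below 0 and 3 in opposite directions. Over all genes the shares were 43.2%, 27.4% and 29.4%. Limma called 1 higher and 0 lower, against 2.07% and 1.36% of all genes. TOMM20, a receptor of the outer membrane, rose from 174 and 171 with siCon to 299 and 384 with siMYCN, a log2 change of 0.97 ± 0.10 (SE, adjusted p = 0.0286 by limma). TIMM9, a small chaperone that guides carriers between the membranes, stood at 28.7 and 24.0 with siCon and at 14.8 and 15.2 with siMYCN, and did not pass (log2 change -0.77, adjusted p = 0.0573 by limma). TOMM70A, the receptor that binds carrier precursors, had -0.18. The genes of this route thus did not share 1 direction.

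The direction counts that follow stand against 27.4% of all genes below 0 and 43.2% above 0 in both siMYCN pairs, and the calls against 3.43%. Of 15 other tested mitochondrial transporters, 9 were below 0 and 3 above 0 in both siMYCN pairs, with a median of -0.15 and 0 called. Of 23 tested enzymes that use carrier substrates, 12 were below 0 and 5 above 0, with a median of -0.078 and 0 called. MDH1, the cytosolic partner of SLC25A11 in the malate-aspartate shuttle, stood at 66.7 and 54.7 with siCon and at 45.7 and 43.2 with siMYCN (adjusted p = 0.0779 by limma). Of the other enzymes of this list, CS, CPT2 and BCAT2 were also lower in both siMYCN pairs, with means of -0.55, -0.47 and -0.44. MDH2, GOT1 and GOT2 had siMYCN effects of -0.058, -0.035 and -0.0018 over both pairs, and CKMT1A had 0.56. Of 13 transcripts of the mitochondrial genome, 11 were below 0 in both pairs, with a median of -0.14, and MT-CO1 fell (log2 change -0.27, adjusted p = 0.0430 by limma). With let-7a, limma called 0 genes in any of these lists. The let-7a medians were 0.033 for the family genes under other symbols, 0.019 for import, -0.067 for other transporters, -0.035 for enzymes and 0.042 for the mitochondrial genome.

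**Figure D5:**
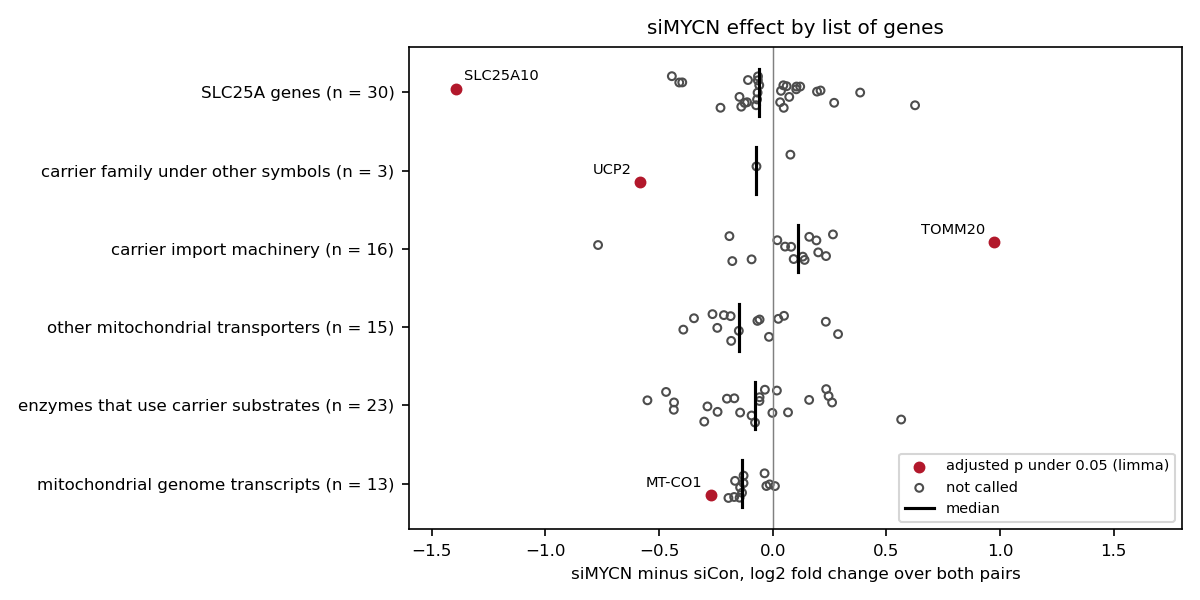
siMYCN effect over both pairs (log2 fold change) for the SLC25A genes and 5 lists of related genes; each point is a gene, filled points have an adjusted p under 0.05 by limma, and bars mark medians. The SLC25A genes, the family genes under other symbols, the import machinery and the mitochondrial genome have 1 called gene each, and TOMM20 at 0.97 is the one on the higher side.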

How the data were processed

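The submitters' processing notes name HISAT (0.1.6) and Salmon (0.3.2), as well as GRCh38, with no role or order. Annotation, strand and log step were not given in the sources used here. The deposited table holds 19837 rows of natural log values. Base e was settled from the totals, since base 2 would give 143211 to 147588. Values were taken as exp(x) - 1, those under 1e-06 as 0, and 11 vector rows were set apart.

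Genes with a mean of at least 5 were fitted with limma 3.58.1 (R 4.3.3) on log2(value + 1), trend on, with siRNA and mimic as additive terms, and p-values adjusted by Benjamini-Hochberg over 9324 genes. The fit has 1 residual and 4.30 prior degrees of freedom, so its errors rest largely on other genes and on additivity. The script was tested on simulated data in which the effects add, so that test cannot check additivity. GENCODE 29 (GRCh38) matched all 48 members.

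Named members were those called, those past 1.5-fold in 1 direction in each pair, the 4 highest and 4 lowest per treatment, the 8 of highest mean, the ADP/ATP carriers, those next to the filter and those whose pairs differed by at least 1 (log2). Others named for paralogues, sites, promoters or the related lists (beyond those called) were chosen after their values were seen. Members and lists were chosen with earlier results of these data known. Alternatives were other pseudocounts (0.1 and 5), filters (none and 20), a lower and a higher fold limit, rescaling and limma without a trend. Rescaling without the mitochondrial genome was added after seeing the data. Values of 1 member and a promoter sequence are not reported here, and counts over the members include that member.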

Additional observations from a re-analysis of the deposited data

Results flagged for a closer look

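For each of 5 members the let-7a effect was above 0 with one siRNA and below 0 with the other and the effects differed by at least 1.5-fold. With 1 library per group this difference was not tested, and 10.0% of all tested genes differed by that much between the pairs, whatever the direction. As let-7a effect with siMYCN minus that with siCon, the log2 differences were -0.695 for SLC25A29, a carrier of basic amino acids, -0.669 for SLC25A51, 0.655 for SLC25A4, 0.851 for SLC25A41 and 1.63 for SLC25A35. SLC25A4, SLC25A41 and SLC25A35 lay under the filter, and SLC25A41 was at 0.753 or less in every library.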

How the results depend on the processing

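The call of SLC25A10 with siMYCN held under both other pseudocounts and both rescalings, with adjusted p by limma from 0.00831 to 0.0328. Lower calls among members numbered 0 with no filter, 0 without a trend, 2 at a mean of at least 20 (where SLC25A10 is not tested), 3 when rescaled by median ratios and 3 when rescaled without the mitochondrial genome; all of these were among SLC25A10, SLC25A11 and SLC25A3. Over all genes, siMYCN calls were 193 higher and 127 lower in the main setting, 343 and 408 rescaled by median ratios, 203 and 263 without the mitochondrial genome, 310 and 196 at a mean of at least 20, 150 and 93 at a pseudocount of 5, and 0 and 0 with no filter or without a trend, where 2452 and 2221 genes had an unadjusted p under 0.05. The cause was not tested.

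By size with siMYCN, 1 member was higher at a pseudocount of 0.1 and 1 at the lower fold limit, and 0 were lower at a mean of at least 20 and 3 at the lower fold limit. With let-7a, 1 was lower with no filter (SLC25A30) and 1 at the lower fold limit. The members' median was 0.036 for siMYCN with miRCon alone and -0.078 for let-7a with siMYCN alone. Effects near 0 changed sign. With siMYCN, rescaling by median ratios gave -0.029 for SLC25A32, -0.00027 for SLC25A36, -0.026 for SLC25A5 and -0.014 for SLC25A6, and rescaling without the mitochondrial genome gave -0.025 for SLC25A32, -0.022 for SLC25A5 and -0.010 for SLC25A6. With let-7a, SLC25A10 became 0.0043 at a pseudocount of 5, 0.029 rescaled by median ratios and 0.0051 rescaled without the mitochondrial genome. No pairing of libraries by replicate was possible, because each group held 1 library and the labels give no replicate numbers. The pairs above join libraries that share a mimic or an siRNA. Depth is unknown, so what it limits for low members could not be given.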

Other observations

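The promoter window of SLC25A31, the ADP/ATP carrier of testis that was listed at 0 in 3 libraries, held 4 copies of CACGTG, more than any other member's window. They begin 94, 80, 66 and 52 bases before the RefSeq start site. The stretch is shown from the window around the copy at 80 bases (GRCh38.p14, capitals mark CACGTG).
SLC25A31, chr4:127730308-127730337, plus strand: cgtgtcaggagtCACGTGtcaggtgtcacg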
